A study of Sus scrofa with 4 samples.

Results

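Transcripts of 9 genes of the transforming growth factor beta (TGF-beta) pathway were followed through single-cell RNA libraries of regenerated bone. The genes were chosen by symbol from the 20648 genes in the files, and 9 of 9 were found. They are the ligands TGFB1, TGFB2 and TGFB3, the receptors TGFBR1 and TGFBR2, the matrix proteins LTBP2 and TGFBI, and the inhibitors SMAD7 and SKIL. The tissue came from Bama mini-pigs, a small breed of domestic pig, aged 8 months. Peptide 1797 was set against a control peptide, each represented by 2 libraries, and further control samples that the design text counts were not analysed here. The dose, the site and the time of sampling are not given in the sources used here. In all 4 libraries the bone was digested with type I collagenase, red cells were lysed, and cells were captured with the 10x Genomics 3′ method. That method tags 1 end of each transcript and counts molecules by unique molecular identifiers (UMIs). Whether the 2 libraries of a peptide stem from different animals is not given in the sources used here, so p-values measure only the spread between these libraries, which may be technical.

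As background, TGF-beta ligands are secreted in a latent form, held by their own propeptide and often by a latent binding protein in the matrix, and must be released before they bind. The active ligand brings the type II receptor TGFBR2 and the type I receptor TGFBR1 together, and TGFBR1 then phosphorylates SMAD2 and SMAD3, which enter the nucleus with SMAD4. SMAD7 and SKIL damp the signal, and both are themselves induced by it. In bone the matrix is a large store of latent TGF-beta, which resorbing osteoclasts can release, and the ligand recruits and steers osteoblast progenitors.

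The libraries held 12133 to 14496 barcodes and 87844389 to 98758412 UMIs, and 49137 cells were kept. Median depth per kept cell ran from 3145.5 to 5345 UMIs and was lower in both libraries of peptide 1797. Library 1 of peptide 1797 stood apart by quality, with a median mitochondrial share of 4.18% beside 2.82% to 2.97%, and 1159 of its barcodes fell under 200 genes, beside 55 to 309 elsewhere. Any pair of libraries shared 37 to 48 barcode sequences, at most 0.383% of a library. Cells fell into 33 clusters, which marker genes put in 16 classes, leaving 5057 cells unnamed. A class name such as monocyte-like means a cluster led by the markers of that cell type. Tests were run in 12 classes, those that no library held with fewer than 30 cells, and chondrocyte-like (62 cells), osteoclast-like (208), plasma cell-like (233) and pericyte or smooth muscle-like cells (440) were described only. Levels are CPM, the UMIs of a gene scaled to a total of 1000000 for the summed cells of a class in a library. They are compared between classes for 1 gene at a time, since these libraries give no level per transcript length that would rank one gene against another. Differences between classes carry no test, because the classes were made from the same cells.

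None of the 9 genes was called between the peptides in any class or in the sum of all cells. In 97 tests of a gene in a class or in the sum, edgeR's quasi-likelihood test made 0 calls at a Benjamini-Hochberg adjusted p of 0.05, and the lowest adjusted p was 0.513. The same fits called 0 of all genes tested, 0.0% in each. An unadjusted p under 0.05 was found in 6 of 88 tests of these genes in the 12 classes, beside 4.56% of the 126977 tests of all genes. They were TGFBI in macrophage-like (2 of 9 genes with TGFB3, beside 9.19% of all genes there) and NK or cytotoxic T-like cells (1 of 7, beside 3.45%), TGFB2 in monocyte-like (1 of 7, beside 6.55%), SMAD7 in endothelial-like (1 of 8, beside 4.53%) and SKIL in eosinophil-like cells (1 of 5, beside 1.55%). In the sum of all cells it was LTBP2, 1 of 9, beside 1.59% of 16654 genes. The other classes had 0, beside 7.36% of genes in B, 4.87% in T, 5.18% in dendritic, 1.51% in erythroid, 2.5% in mast cell or basophil, 1.03% in neutrophil and 2.4% in stromal or osteoblast-like cells. The second tool, DESeq2, called between 0 and 102 genes per class and 21 in the sum, and 0 of the 9 were among them. The differences below are therefore given as values.

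With 2 libraries against 2, many genes lie apart, meaning that both 1797 libraries are above, or both below, both control libraries. In macrophage-like cells 2 of 9 lay apart and higher and 5 lower, beside 17.9% and 24.8% of all genes. B cell-like cells had 2 higher and 4 lower of 8, beside 14.5% and 25.9%, and monocyte-like cells 3 and 2 of 7, beside 14.4% and 24.5%. NK or cytotoxic T-like cells had 0 and 4 of 7, beside 12.2% and 18.5%, and T cell-like cells 1 and 3 of 9, beside 15% and 18.7%. In each of these 5 classes all genes, too, lay apart and lower more often than higher. Dendritic cell-like cells had 1 and 2 of 7, beside 17.7% and 16.4%, endothelial-like cells 1 and 2 of 8, beside 13.4% and 21.7%, and neutrophil-like cells 0 and 3 of 8, beside 6.56% and 12.3%. Stromal or osteoblast-like cells had 2 and 0 of 9, TGFB2 and SMAD7, beside 14.5% and 15.1%, and mast cell or basophil-like cells 2 and 0 of 6, beside 13% and 13.1%. Eosinophil-like cells had 0 and 2 of 5, beside 12.5% and 14.2%, and erythroid-like cells 1 and 0 of 5, beside 10.9% and 16.4%. The sum of all cells had 2 and 2 of 9, beside 12.6% and 12.2%.

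**Figure D1:**
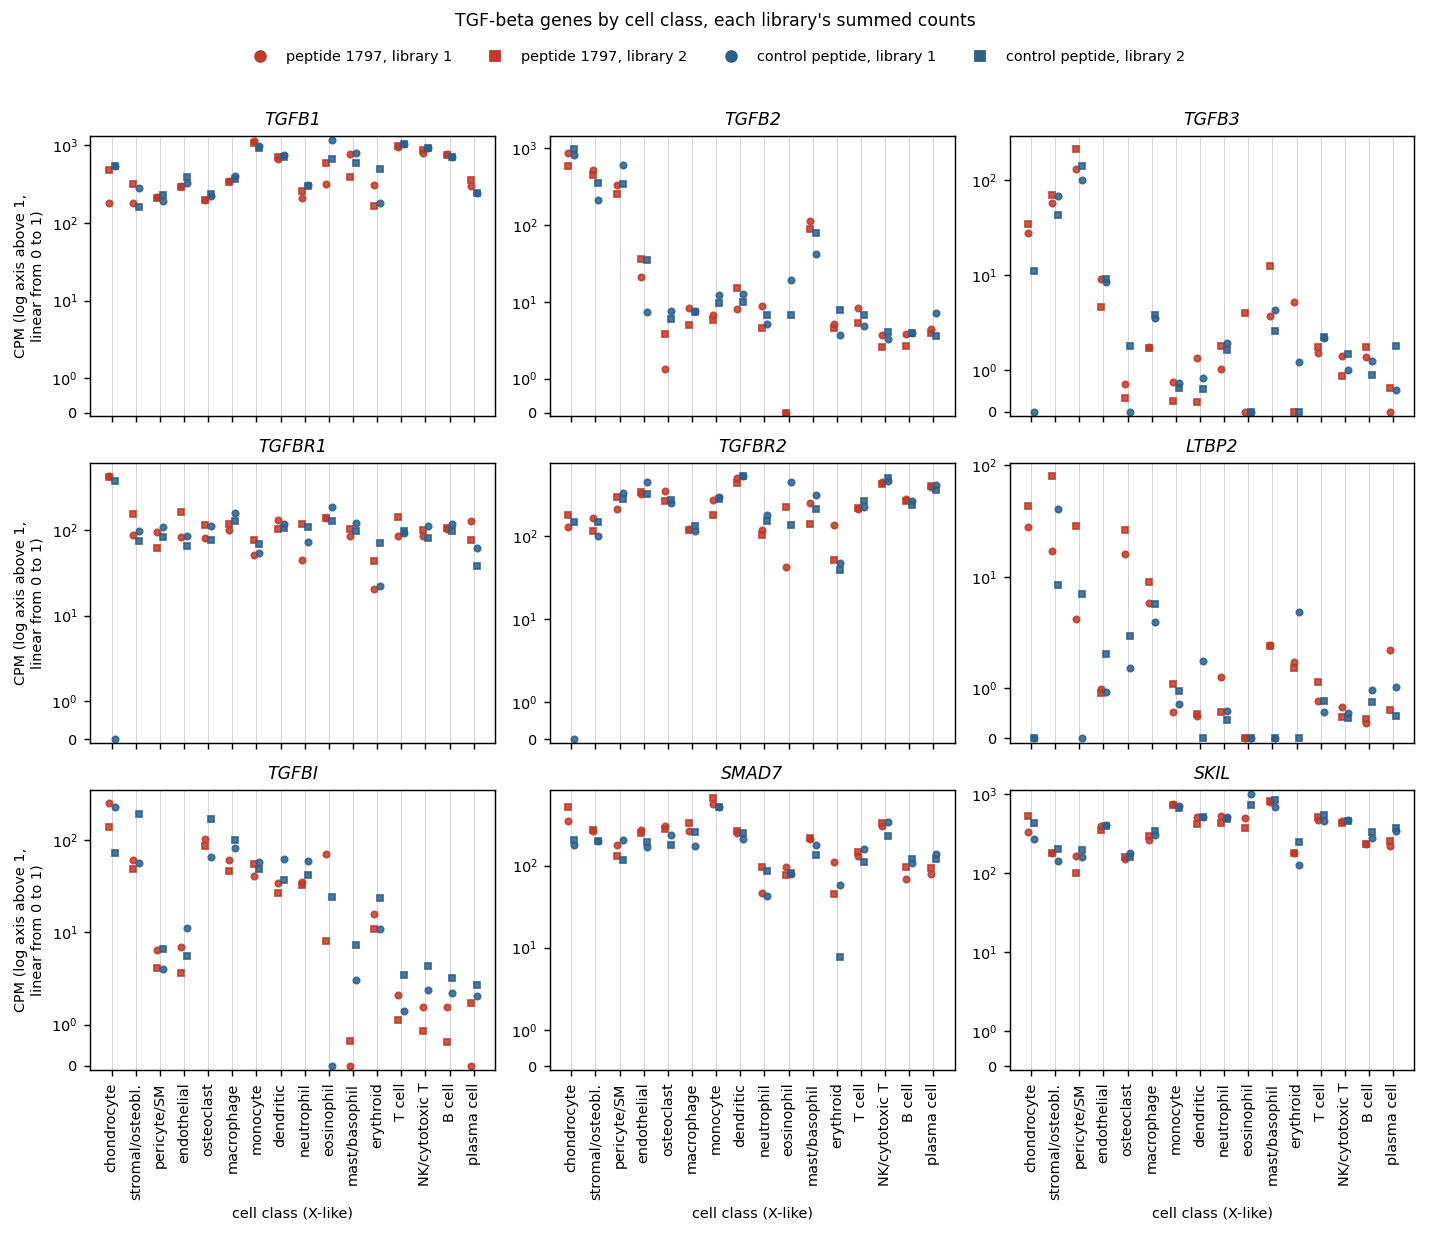
Each panel shows 1 gene: the level in CPM (log axis above 1, linear from 0 to 1) in 16 cell classes, with 1 point per library (red for peptide 1797, blue for control peptide, circles for library 1, squares for library 2). TGFB1, TGFBR1, TGFBR2, SMAD7 and SKIL had points well above 10 CPM in most classes, whereas TGFB2 and TGFB3 stood highest in the chondrocyte, stromal and pericyte classes on the left and LTBP2 in stromal or osteoblast-like cells.

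TGFB1, the ligand of most blood and immune cells (chromosome 6, 49332169 to 49348642, Sscrofa11.1), was highest in monocyte-like and T cell-like cells. In monocyte-like cells it stood at 1129.9 and 1069 CPM in peptide 1797 libraries 1 and 2 and at 976 and 921 CPM in control libraries 1 and 2. In T cell-like cells the same order of libraries gave 943, 984, 1054 and 1048 CPM. Both classes ran at about the same level, with overlapping libraries, while the T cell-like libraries all lay above those of the NK or cytotoxic T-like class, at 798 to 938 CPM. B cell-like cells followed at 701 to 764 CPM, below every NK or cytotoxic T-like library. The lowest means were in pericyte or smooth muscle-like cells, with 213 ± 15.7 CPM (SD, n = 4), and in osteoclast-like cells, with 216 ± 19.2, and from B cell-like cells downward no class lay wholly above the next. T cell-like cells gave 33.0% of all TGFB1 UMIs with 20.4% of the cells, and monocyte-like cells 16.0% with 4.64%.

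The level of TGFB1 was not even within a class. Among dendritic cell-like cells, the cluster led by FLT3 held 1002 CPM on average over the libraries and the cluster led by NEGR1 held 324. Neutrophil-like cells, the most numerous class, stood at 209 and 259 CPM in the peptide 1797 libraries and 305 and 297 in the control libraries, low in all 4. Between the peptides, TGFB1 was higher in both 1797 libraries in monocyte-like cells, by a log2 fold change (1797 minus control) of 0.27 ± 0.17 (SE), with an edgeR adjusted p of 0.812. Across the 12 tested classes, which share the same libraries and so are not separate observations, TGFB1 was lower in 9. Its groups did not overlap in 6 of those, while in single classes 12.3% to 25.9% of all genes lay apart and lower. How many of all genes did so over as many classes was not counted. Summed over all cells TGFB1 stood at 594, 630.2, 779 and 604 CPM, with a log2 fold change of -0.19 ± 0.22 and an edgeR adjusted p of 1. That sign rested on control library 1, without which the value was 0.025.

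TGFB2, a ligand of skeletal and mesenchymal tissue (chromosome 10, 8306136 to 8435307), was concentrated in few cells. Chondrocyte-like cells led with 881, 588, 806 and 967 CPM in 1797 libraries 1 and 2 and control libraries 1 and 2. The class of stromal or osteoblast-like cells, which carried COL1A1, COL1A2 and IBSP, followed with 527 and 452 against 211 and 358 CPM. Pericyte or smooth muscle-like cells held 333, 254, 607 and 341 CPM. The chondrocyte-like value of control library 1 rests on 2 cells and 18 UMIs. The chondrocyte-like libraries all lay above the stromal ones, while stromal and pericyte classes overlapped, and both lay above every remaining class. Together the 3 mesenchymal classes gave between 51.6% and 88.2% of the TGFB2 UMIs of a library, from 0.591% to 5.63% of its cells.

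Mast cell or basophil-like cells came next. They held 112, 89.0, 41.5 and 78.0 CPM, above every library of endothelial-like cells, the next class, at 7.48 to 35.7. The class was named from KIT, MS4A2, GATA2 and FCER1A, while CPA3 and HDC, also among its 6 markers, did not lead it. Those 6 summed to 1046, 419, 678 and 884 CPM. The 9 dendritic cell markers, which also include FCER1A, summed in these cells to 1564, 882, 639 and 1200 CPM. In 3 of 4 libraries that was above the markers of the class itself. Its 12 T cell markers summed to 975.4, 814, 2263 and 1049.6 CPM, above its own markers in 3 of 4 libraries and highest in control library 1, where TGFB2 was lowest, and their part was not tested. COL1A1, the collagen of bone matrix, was counted in blood cells too, at 106 CPM on average in mast cell or basophil-like cells and at 116 in T cell-like cells, beside 34060 in stromal cells. For each 1000 COL1A1 UMIs there were 13.6 TGFB2 UMIs in stromal or osteoblast-like cells, 53.2 in T cell-like cells and 661 in mast cell or basophil-like cells. Pericyte or smooth muscle-like cells had 137 and chondrocyte-like cells 216, both above the T cell-like value. The share of mast cell or basophil-like cells with a TGFB2 UMI was 11.5% to 31.1%, beside 2.61% to 4.16% of T cell-like cells, at median depths of 10712 and 7190 UMIs. With each cell thinned to 1000 UMIs and shallower cells left out (which kept 87 to 202 mast cell or basophil-like and 1860 to 3164 T cell-like cells per library), the shares were 3.68% to 5.00% and 0.342% to 0.753%.

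TGFB3 (chromosome 7, 99133873 to 99162239), the third ligand, was highest in pericyte or smooth muscle-like cells, the wall cells of vessels. They held 131, 213, 101 and 142 CPM, and stromal or osteoblast-like cells 57.3, 70.6, 68.0 and 43.4. Every pericyte library lay above every stromal one, and every stromal library above those of the remaining classes, of which chondrocyte-like cells held up to 34.4 CPM and endothelial-like cells up to 9.04. Stromal and pericyte classes gave 38.0% and 35.4% of all TGFB3 UMIs. Blood and immune classes stood near the limit of detection, with means of 0.55 CPM in monocyte-like cells (19 UMIs in all) to 5.76 in mast cell or basophil-like cells (39 UMIs).

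The summed levels of TGFB2 and TGFB3 were highest in the libraries with the most mesenchymal cells. Stromal, pericyte and chondrocyte-like cells were 688 and 75 in the peptide 1797 libraries and 137 and 323 in the control libraries. TGFB2 in the sum stood at 75.4 and 17.2 CPM against 14.6 and 53.8, and TGFB3 at 14.0 and 3.39 against 3.92 and 9.23. Library 1 of peptide 1797 and library 2 of the control were the high pair in all 3 measures, the order of the low pair differed for TGFB2, and the peptide groups overlapped. The log2 fold changes were 0.39 ± 0.91 for TGFB2 and 0.36 ± 0.77 for TGFB3, both with an edgeR adjusted p of 1. Leaving out 1797 library 1 turned them to -0.93 and -0.89, and leaving out control library 1 to -0.26 and -0.12. The sums alone do not separate cell number from RNA per cell. Mesenchymal cells of 1797 library 1 held 5525 TGFB2 UMIs in 688 cells, and those of 1797 library 2 held 973 in 75. Control library 1 had 667 in 137 such cells, and control library 2 had 4189 in 323. TGFB3 UMIs of the same cells were 979, 166, 186 and 688, in that order. The part of cell number and of RNA per cell in the sums was not tested.

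**Figure D2:**
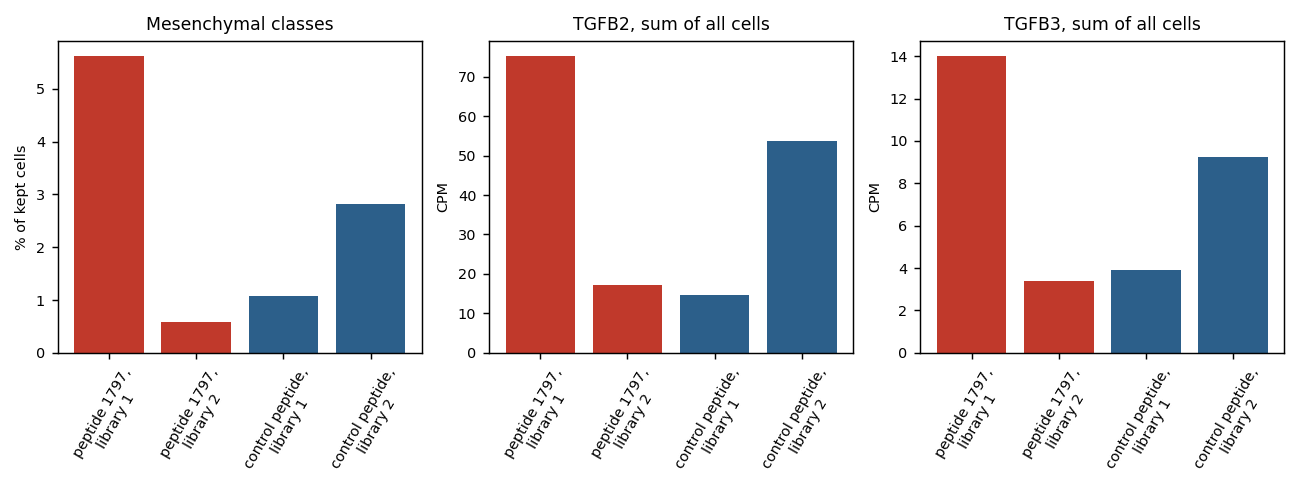
Bars show, for each of the 4 libraries (red for peptide 1797, blue for control peptide), the share of kept cells in the stromal, pericyte and chondrocyte-like classes in percent (left) and the CPM of TGFB2 (middle) and TGFB3 (right) in the sum of all cells. The tallest bar is 1797 library 1 in each panel, at 5.63% of cells, 75.4 CPM and 14.0 CPM, and control library 2 comes next in each.

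Within stromal or osteoblast-like cells, on the scale of the class's own UMIs, TGFB2 was higher in both 1797 libraries than in either control library, with means of 489.5 ± 52.9 and 285 ± 104 CPM (SD, n = 2). The log2 fold change came to 0.77 ± 0.33, with an edgeR adjusted p of 1, and over the alternatives it ran from 0.45 to 1.20 without a change of sign. The class differed between libraries in its own markers: the summed CPM of the 14 stromal or osteoblast markers was 70956 and 58234 with peptide 1797 and 138041 and 77309 with the control peptide, lower in both 1797 libraries, with 0 markers at zero. The part of that difference in the TGFB2 values was not tested. TGFB3 in the same cells overlapped between the groups, with a log2 fold change of 0.19 ± 0.32 and an edgeR adjusted p of 1, and turned to -0.11 without control library 2.

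Among low values, TGFB2 was lower in both 1797 libraries in monocyte-like cells, with 6.65 and 5.77 CPM against 12.4 and 9.62, from 38, 69, 107 and 102 UMIs. The log2 fold change came to -0.77 ± 0.30, with an edgeR adjusted p of 0.755. COL1A1 in the same cells stood at 87.7 and 14.6 CPM against 103 and 167, also lowest in the 1797 libraries, and its part in the TGFB2 difference was not tested. In macrophage-like cells TGFB3 stood at 1.73 and 1.71 CPM against 3.56 and 3.81, from 15, 32, 31 and 22 UMIs. Here the log2 fold change came to -1.03 ± 0.38, with an edgeR adjusted p of 0.524. COL1A1 in macrophage-like cells was 147 and 78.0 CPM against 203 and 268, again lower in both 1797 libraries, and its part was not tested. For each 1000 COL1A1 UMIs there were 16.5 TGFB3 UMIs in macrophage-like cells, 16.6 in T cell-like cells and 1.78 in stromal cells. Pericyte or smooth muscle-like cells had 54.4 and chondrocyte-like cells 7.52.

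The receptors were found in nearly every class. TGFBR1, the type I receptor kinase (chromosome 1, 240842735 to 240918267), had no sharp step, and no class lay wholly above the next. In the 12 tested classes its mean ran from 38.9 ± 23.1 CPM in erythroid-like cells to 147 ± 25.6 in eosinophil-like cells (SD, n = 4). Every eosinophil-like library lay above those of B cell, NK or cytotoxic T, mast cell or basophil, neutrophil, monocyte and erythroid-like cells. The eosinophil-like levels rest on 10 and 35 UMIs in 1797 libraries 1 and 2 and 19 and 132 in control libraries 1 and 2. Chondrocyte-like cells held 425, 415 and 372 CPM in 3 libraries and were at 0 in control library 1, where the class has 2 cells. In eosinophil-like cells the libraries stood at 138.9 and 139.9 CPM against 185 and 126, overlapping, with a log2 fold change of -0.067 ± 0.46 and an edgeR adjusted p of 1. Over all cells the values were 89.5 and 114 CPM against 102 and 91.4, with a log2 fold change of 0.069 ± 0.24 and an edgeR adjusted p of 1, and of -0.19 without 1797 library 2. It was higher in 6 and lower in 6 of the 12 tested classes, and the groups were apart in 1 of them.

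TGFBR2, the type II receptor that binds the ligand first (chromosome 13, 16784370 to 16875828), had a steeper profile. Dendritic cell-like cells held 490.0, 428, 516 and 517 CPM and NK or cytotoxic T-like cells 446, 414.5, 457 and 492 CPM, which overlap. Every NK or cytotoxic T-like library lay above those of plasma cell-like cells, at 358 to 411 CPM, and endothelial-like cells followed at 318 to 440.2. The lowest means among tested classes were 67.5 CPM in erythroid-like, 121 in macrophage-like and 131 in stromal or osteoblast-like cells. Within T cell-like cells, the cluster led by BLK and SOX13 held 128 CPM on average and the cluster led by ICOS and FOXP3 held 321. The NK-like cluster with GNLY, PRF1 and NCR1 reached 523 and the dendritic cell-like cluster led by NEGR1 reached 611, where TGFB1 was low.

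Between the peptides TGFBR2 was lower in 8 of the 12 tested classes, with groups apart in 5 of those. As the classes share the same libraries, they are not separate observations, and the share of all genes with such a tally was not counted. Dendritic cell-like cells had a log2 fold change of -0.17 ± 0.16 and an edgeR adjusted p of 0.986. The sum of all cells stood at 250.1 and 199.8 CPM against 280.0 and 258, lower in both 1797 libraries, with a log2 fold change of -0.28 ± 0.18 and an edgeR adjusted p of 1. The spread of log2 fold changes over classes ran from -0.78 in eosinophil-like to 1.30 in erythroid-like cells, both of them classes with few UMIs, and no class passed an unadjusted p of 0.05.

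**Figure D3:**
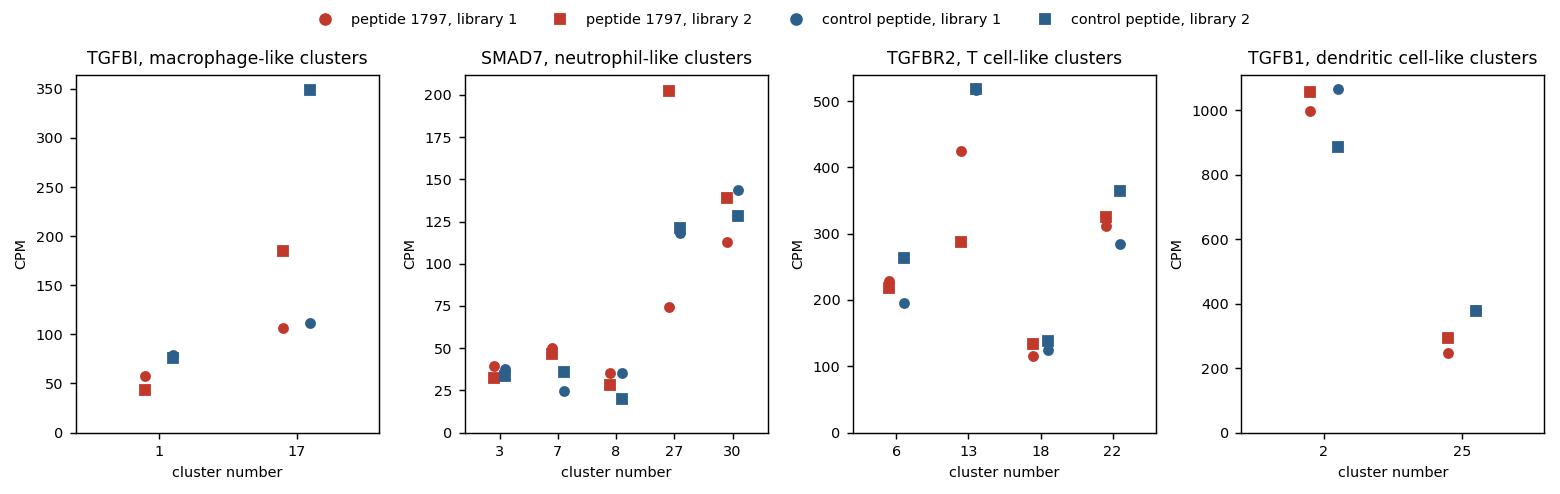
Each panel shows 1 gene in the clusters of 1 class, as CPM per library (red for peptide 1797, blue for control peptide, circles for library 1, squares for library 2, linear axes from 0). TGFBI was higher in macrophage-like cluster 17 than in cluster 1, SMAD7 in neutrophil-like clusters 27 and 30 than in 3, 7 and 8, TGFBR2 lowest in T cell-like cluster 18, and TGFB1 higher in dendritic cell-like cluster 2 than in cluster 25.

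LTBP2, a matrix protein of the latent TGF-beta binding family (chromosome 7, 97744974 to 97852848), had the fewest UMIs of the 9 genes, 1091 in all. It was highest in stromal or osteoblast-like cells, at 16.8 and 79.4 CPM in 1797 libraries 1 and 2 and 40.5 and 8.38 in control libraries 1 and 2. The libraries of each group stood far apart, the groups overlapped, and the log2 fold change of 0.98 ± 0.92 (edgeR adjusted p = 1) turned to -0.49 without 1797 library 2. Stromal or osteoblast-like cells gave 35.7% of LTBP2 UMIs, macrophage-like cells 26.0% and osteoclast-like cells 10.2%. Eosinophil-like cells held 0 UMIs.

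LTBP2 was also counted in osteoclast-like and macrophage-like cells. Osteoclast-like cells, which carried ACP5, CTSK and CALCR, held 15.9 and 26.0 CPM with peptide 1797 and 1.53 and 2.96 CPM with the control peptide. These rest on 24 and 81 UMIs against 1 and 5, in 45, 90, 25 and 48 cells, and were not tested because 1 library has under 30 cells. The exact Poisson intervals, which cover counting error only, ran from 10.2 to 23.7 and from 20.6 to 32.3 CPM in the 1797 libraries, and from 0.0386 to 8.5 and from 0.961 to 6.91 CPM in the control libraries. Macrophage-like cells held 5.76 and 8.91 CPM against 3.90 and 5.72, higher in both 1797 libraries by a narrow margin, and above the osteoclast-like level in both control libraries but below it in both 1797 libraries, with a log2 fold change of 0.70 ± 0.38 (edgeR adjusted p = 0.586). For each 1000 COL1A1 UMIs, pooled over the 4 libraries, there were 46.9 LTBP2 UMIs in macrophage-like cells and 0.679 in stromal or osteoblast-like cells. Pericyte or smooth muscle-like cells had 2.28 and chondrocyte-like cells 7.89.

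LTBP2 in the sum of all cells stood at 3.24 and 4.79 CPM against 2.14 and 1.96, from 269, 449, 190 and 183 UMIs. Both 1797 libraries lay above both control libraries, and the log2 fold change came to 0.97 ± 0.36, with an edgeR adjusted p of 1, and it ran from 0.58 to 1.28 over the alternatives. Marker sums of 3 cell types were also higher in both 1797 libraries: the 9 osteoclast markers with 856 and 914 against 363 and 805 CPM, the 11 macrophage markers with 899 and 1005 against 692 and 684, and the 8 chondrocyte markers with 864 and 389.5 against 49.8 and 300.4. The 14 stromal markers overlapped, with 7076 and 1482 against 4700.3 and 8940. The part of cell numbers in this difference was not tested.

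TGFBI (chromosome 2, 138191793 to 138225373), a secreted adhesion protein named for its induction by TGF-beta, was highest in chondrocyte, osteoclast, stromal and macrophage-like cells. Pericyte or smooth muscle-like cells were low, at 4.05 to 6.53 CPM. Chondrocyte-like cells held 248, 138, 224 and 72.2 CPM and osteoclast-like cells 101, 86.2, 65.6 and 167.5 CPM. Stromal or osteoblast-like cells stood at 60.5 and 48.0 CPM with peptide 1797 and 55.7 and 191 with the control peptide, and the single high library was control library 2. Monocyte, neutrophil and dendritic cell-like classes averaged 39.8 to 50.4 CPM, whereas T, B and NK-like cells averaged 1.88 to 2.26 CPM. Neighbouring classes overlapped throughout this order. Within macrophage-like cells the cluster led by C1QA and CD5L, with a median of 791 UMIs per cell, averaged 188 CPM, and the deeper cluster led by STXBP5L and ATP6V0D2 averaged 64.1.

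TGFBI was lower with peptide 1797 in 9 of the 9 classes where it could be tested, with groups apart in 5. The classes of a library share its cells' handling and free RNA, so these are not 9 separate observations. In single classes 12.3% to 25.9% of all genes lay apart and lower, and the share of all genes with 1 sign in every class was not counted. In macrophage-like cells TGFBI stood at 59.8 and 45.5 CPM against 80.8 and 99.99, lower in both 1797 libraries. The log2 fold change came to -0.73 ± 0.19, with an edgeR adjusted p of 0.513, and over the alternatives it ran from -0.89 to -0.56. In the deep cluster the groups were apart, at 57.4 and 43.6 CPM against 79.0 and 76.3, while in the C1QA cluster the libraries overlapped, at 107 and 185 against 112 and 349. The C1QA cluster, where TGFBI was higher, held 339 and 210 cells against 447 and 543. The whole class held 669 and 732 against 854 and 730. The part of these cell numbers was not tested. In macrophage-like cells the summed CPM of the 11 macrophage markers was 6757 and 4190.1 against 5200 and 7405 and that of the 9 osteoclast markers 1407 and 1251 against 715 and 982, with 0 markers at zero in either list, and their part was not tested. With osteoclast-like cells kept in the class the value was -0.68.

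In stromal or osteoblast-like cells the TGFBI log2 fold change came to -1.20 ± 0.55, with an edgeR adjusted p of 1, and the groups overlapped. Leaving out control library 1 gave -1.80 with an adjusted p of 0.0101, and then the comparison rests on control library 2 alone. Leaving out control library 2 gave -0.040. In NK or cytotoxic T-like cells TGFBI was at 1.55 and 0.85 CPM against 2.37 and 4.26, from 10, 4, 33 and 32 UMIs, with a log2 fold change of -1.34 ± 0.54 (edgeR adjusted p = 0.999). The summed macrophage markers in those cells were 88.4 and 59.0 CPM against 117 and 104, also lower in both 1797 libraries, and their part was not tested. Over all cells TGFBI stood at 24.6 and 27.3 CPM against 25.2 and 46.3, with a log2 fold change of -0.47 ± 0.35 (edgeR adjusted p = 1) that turned to 0.047 without control library 2.

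SMAD7 (chromosome 1, 98512800 to 98543924), the inhibitory SMAD that blocks and degrades the type I receptor, was highest in monocyte-like cells. It stood there at 554 and 665 CPM with peptide 1797 and 515 and 518 with the control peptide. Chondrocyte-like cells followed, at 179 to 523 CPM, and then NK or cytotoxic T-like cells at 302, 331, 336 and 229. All monocyte-like libraries lay above those of the NK or cytotoxic T-like class. The lowest means were 55.3 CPM in erythroid-like and 67.1 in neutrophil-like cells. Neutrophil-like cells were of 2 kinds. The clusters led by PR39 and AZU1 or by CRISP3 and MMP8, granule genes of immature neutrophils, averaged 129 and 131 CPM. The other 3 clusters averaged 29.7 to 39.3. The PR39 cluster held 28 and 232 cells in 1797 libraries 1 and 2 and 8 and 388 in control libraries 1 and 2. The CRISP3 cluster held 50 and 447 against 32 and 663. SMAD7 in the whole class stood at 46.1 and 95.5 CPM against 42.2 and 84.8, and the part of these cell numbers was not tested.

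SMAD7 was higher with peptide 1797 in 11 of the 12 tested classes and lower in B cell-like cells, with groups apart and higher in 6. Those classes share the same libraries, so the signs of SMAD7 are not separate observations. In single classes 6.56% to 17.9% of all genes lay apart and higher, and the share of all genes with such a tally over classes was not counted. In endothelial-like cells SMAD7 stood at 273 and 246 CPM against 170.1 and 195, higher in both 1797 libraries. The log2 fold change came to 0.56 ± 0.22, with an edgeR adjusted p of 0.974, and it ran from 0.41 to 0.74 over the alternatives. The summed CPM of the 9 endothelial markers was 4389 and 4694 against 3910.0 and 4605, with 0 at zero. Monocyte-like cells had a log2 fold change of 0.30 ± 0.17 (edgeR adjusted p = 0.801) and macrophage-like cells, at 263 and 333 CPM against 172 and 254, one of 0.55 ± 0.24. B cell-like cells, at 69.2 and 94.8 CPM against 107 and 121, went the other way, with -0.41 ± 0.18. SMAD7 in the sum stood at 215.1 and 259 CPM against 213 and 195, with a log2 fold change of 0.21 ± 0.21 (edgeR adjusted p = 1) and of -0.0074 without 1797 library 2.

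SKIL (chromosome 13, 109029831 to 109059176), which encodes the SMAD co-repressor SnoN, was highest in mast cell or basophil-like cells at 802, 825, 695 and 845 CPM. Monocyte-like cells came next, at 757 and 728 CPM with peptide 1797 and 719.9 and 670.2 with the control peptide, overlapping with the former. Eosinophil-like cells averaged 655 CPM, and from T cell-like to endothelial-like cells the class means ran from 498 down to 389.7 CPM. Every endothelial-like library lay above every macrophage-like one, the 1 place in the order where neighbours parted, and the stromal, osteoclast-like and pericyte classes closed it at 157 to 177 CPM. Between the peptides the mast cell or basophil-like class had a log2 fold change of 0.053 ± 0.27 (edgeR adjusted p = 0.999), with a sign that depended on which library was left out.

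In eosinophil-like cells SKIL stood at 500.1 and 376 CPM with peptide 1797 and 1011 and 735 with the control peptide, lower in both 1797 libraries. These came from 36, 94, 104 and 769 UMIs, and the log2 fold change came to -0.94 ± 0.41, with an edgeR adjusted p of 1. The class was shallow, with a median of 1215 UMIs per cell, and held 37, 205, 71 and 486 cells. Its 4 eosinophil markers summed to 7224 and 1923 CPM with peptide 1797 and 593 and 6426 with the control peptide, and their part in the difference was not tested. TGFB1 in the same class was also lower in both 1797 libraries, at 319.5 and 592 against 1186 and 676 CPM. SKIL in the sum was at 384 and 422 CPM against 440.3 and 455, with a log2 fold change of -0.16 ± 0.18 and an edgeR adjusted p of 1.

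**Figure D4:**
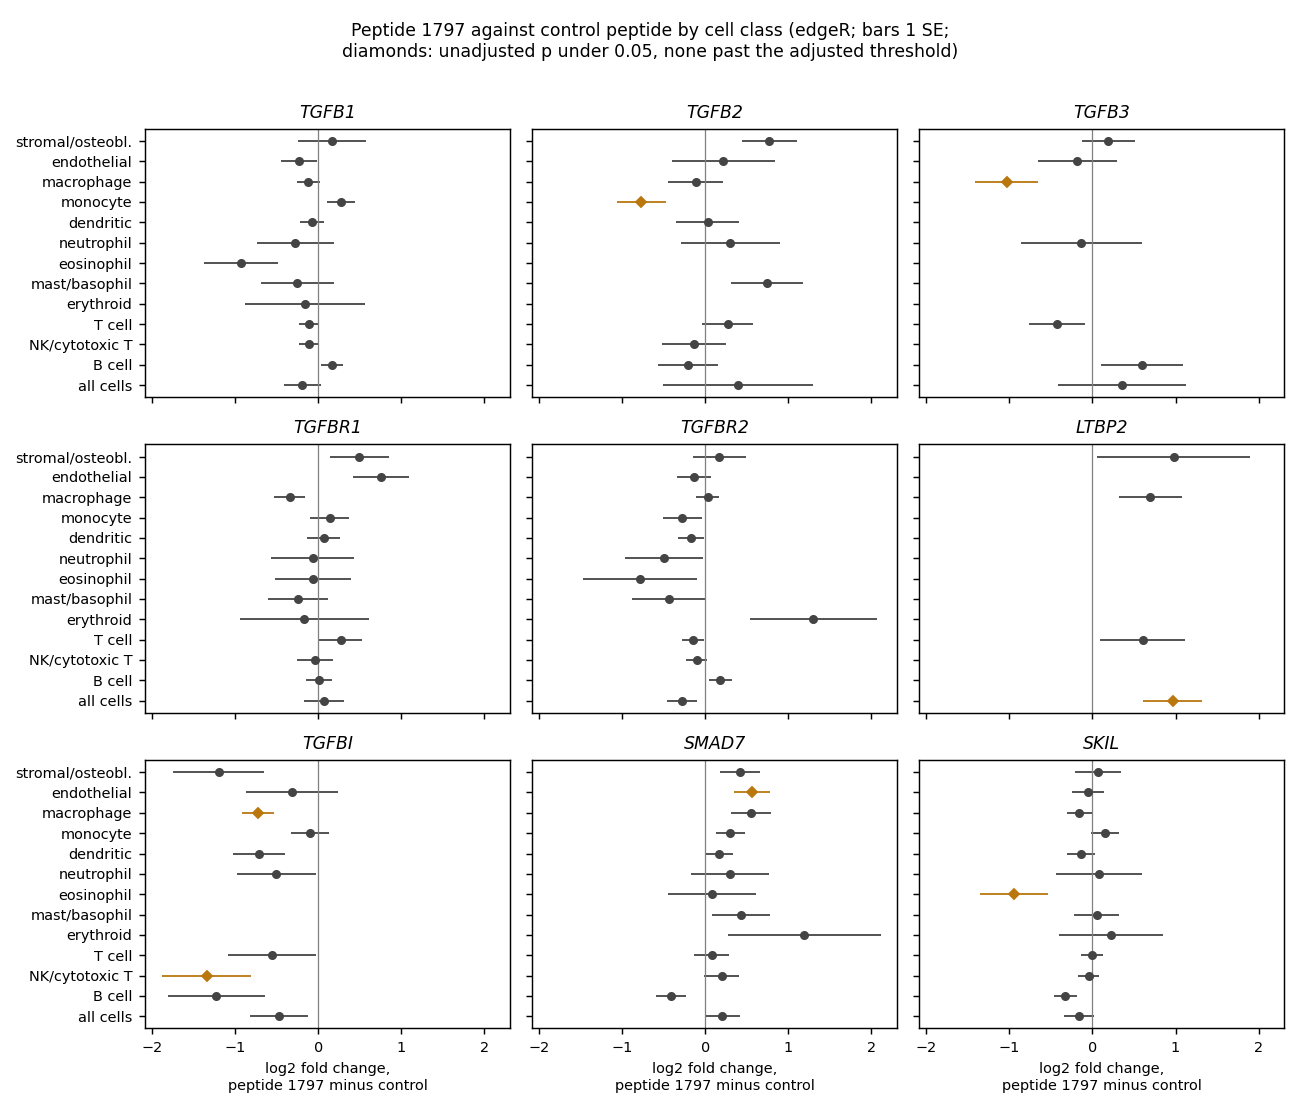
Each panel shows 1 gene: the edgeR log2 fold change (peptide 1797 minus control peptide, horizontal axis) in each tested class and in the sum of all cells, with bars of 1 SE. Diamonds mark the 7 tests with an unadjusted p under 0.05, and 0 tests passed the adjusted threshold. TGFBI lies left of zero in all 9 tested classes, and SMAD7 lies right of zero in all but B cell-like cells. The classes share the same libraries and are not separate observations, and the share of all genes with such signs over the classes was not counted.

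The other genes of the pathway were counted from a list of 48, of which 47 are in the files, in the groups ligand release, receptors, SMAD proteins, inhibitors and targets. None was called by edgeR in any class. In stromal or osteoblast-like cells 32 of 45 tested were higher with peptide 1797, with a median log2 fold change of 0.16 beside -0.03 over all genes, and 71.1% of the list was higher beside 46.8% of all genes. Endothelial-like cells were alike, with 30 of 45 higher and a median of 0.13 beside -0.02. That class had 48.2% of all genes higher. Erythroid-like cells had 16 of 25 higher, beside 50.8% of all genes, and monocyte-like cells 23 of 41, beside 47.3%. T cell-like cells had 22 of 46, beside 49.4%, neutrophil-like cells 22 of 43, beside 50.2%, and NK or cytotoxic T-like cells 20 of 42, beside 49.9%. B cell-like cells had 17 of 42 higher, beside 47.2%, dendritic cell-like cells 16 of 38, beside 50%, and macrophage-like cells 20 of 43, beside 50.5%. Eosinophil-like cells had 5 of 15, beside 50.1%, and mast cell or basophil-like cells 12 of 32, beside 52.6%. Over all cells 31 of 47 were higher, beside 47.6%, with a median of 0.14. Of these 47 genes, 17 had their highest tested class in stromal or osteoblast-like cells and 12 in endothelial-like cells. Stromal or osteoblast-like cells numbered 337 and 45 with peptide 1797 against 118 and 221 with the control peptide. Endothelial-like cells numbered 727 and 77 against 168 and 252, so 1797 library 1 held the most of both. How far cell numbers account for the 31 of 47 was not tested.

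The listed genes below had an unadjusted p under 0.05 and groups that lay apart, and were named for that. LTBP1, a latent binding protein that anchors TGF-beta in the matrix, stood at 292 and 333 CPM against 141 and 202 in stromal or osteoblast-like cells, a log2 fold change of 0.86 ± 0.29 (edgeR adjusted p = 1). In erythroid-like cells it went the other way, at 8.63 and 16.9 against 63.3 and 54.3 CPM, -2.06 ± 0.72 (edgeR adjusted p = 1). That class is shallow, with a median of 1702 UMIs per cell, and held 350 and 189 cells against 305 and 37. ITGB6, an integrin chain that can activate latent TGF-beta, was at 35.4 and 38.6 against 20.7 and 20.4 CPM in stromal or osteoblast-like cells, 0.83 ± 0.28 (adjusted p = 1). ITGAV, its partner chain, was at 768 and 859.6 against 529.8 and 544 CPM in macrophage-like cells, 0.66 ± 0.14 (edgeR adjusted p = 0.513, DESeq2 adjusted p = 0.0364), and 0.37 with osteoclast-like cells kept in. In B cell-like cells it was lower in both 1797 libraries, at 14.1 and 13.4 against 25.9 and 32.1 CPM (edgeR adjusted p = 0.6). Back in macrophage-like cells ITGB8 had a log2 fold change of 0.44 ± 0.13 and NRROS of -0.76 ± 0.20, the latter at 17.4 and 13.1 against 27.6 and 26.0 CPM. ITGB8 was lower in both 1797 libraries in monocyte-like cells, at 36.4 and 47.1 against 69.4 and 69.0 CPM, -0.66 ± 0.19 (edgeR adjusted p = 0.704). In monocyte-like cells LRRC32, which holds latent TGF-beta at the cell surface, was at 7.88 and 12.1 against 1.85 and 3.49 CPM, a log2 fold change of 1.97 ± 0.41 (edgeR adjusted p = 0.641, DESeq2 adjusted p = 0.0449). THBS1, an activator of the latent ligand, was at 130.3 and 115 against 34.8 and 69.2 CPM in neutrophil-like cells, 1.42 ± 0.45 (edgeR adjusted p = 1).

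Among inhibitors, SMURF2 and SMAD6 were named in endothelial-like cells by the same rule. SMURF2, a ubiquitin ligase that SMAD7 brings to the receptor, was at 1844 and 2429 CPM with peptide 1797 and 1001 and 1218 with the control peptide. Its log2 fold change came to 1.00 ± 0.23 (edgeR adjusted p = 0.909, and 0.0259 with no filter on low counts). SMAD6, the second inhibitory SMAD, was at 339 and 305 against 210.3 and 174 CPM, 0.82 ± 0.20 (edgeR adjusted p = 0.948). In monocyte-like cells SMAD6 differed the same way, by 1.03 ± 0.33 (edgeR adjusted p = 0.707).

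Targets lay on both sides. FN1, the matrix protein fibronectin, was higher in endothelial-like cells, at 143 and 151 against 91.6 and 94.2 CPM, and lower in dendritic cell-like cells, at 53.1 and 33.9 against 62.0 and 97.6 CPM. ACTA2, the smooth muscle actin, was lower in stromal or osteoblast-like cells at 168 and 101 against 250.4 and 300.3 CPM. The edgeR adjusted p of these ran from 0.953 to 1. COL1A1 had log2 fold changes of -1.02 in macrophage-like and -1.85 in dendritic cell-like cells. It stood at 110 and 23.2 against 145 and 185 CPM in T cell-like cells, with 1797 library 2 lowest there too.

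Over the 12 tested classes, the genes whose profile was most like each of the 9 were ranked by Pearson correlation of log2(CPM + 1) among 11690 genes. These r values describe 12 class means from the same libraries and carry no test. TGFB2 was closest to ZFPM2, PDZRN3 and FBLN7 (r = 0.97, 0.97 and 0.96), and TGFB3 to BMPER, CPXM1 and P3H4 (0.99, 0.98 and 0.98). LTBP2 was closest to AK1, TWIST1 and RAB34 (0.98, 0.97 and 0.97), and TGFBI to CARD9, GLIS3 and SLC2A5 (0.90 each). TGFB1 was closest to RTN3, LOC110261354 and GPR132 (0.97, 0.97 and 0.94), SMAD7 to TMEM189, CARD19 and MEF2A (0.92, 0.90 and 0.88), and SKIL to NABP1, UBE2A and AMBRA1 (0.87, 0.87 and 0.86). TGFBR1 was closest to ARFIP1, RBM34 and WDR83 (0.95, 0.91 and 0.91) and TGFBR2 to MINK1, KCMF1 and FBXO28 (0.90, 0.90 and 0.89). Among the 9 genes themselves, TGFB2 and TGFB3 had the highest r, 0.90, followed by TGFB3 and LTBP2 at 0.84, while SKIL and LTBP2 had the lowest, -0.67, and TGFB1 and TGFBR2 had 0.64.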

How the data were processed

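Single-cell 3′ RNA of regenerated pig bone was measured in 4 libraries. The authors deposited filtered matrices of unnormalised UMI counts. Cell Ranger 5.0.0 and Sscrofa11.1 are named by the submitters' processing notes, but the software is version 7.0.1 per the file headers. Positions, counted from 1, come from RefSeq's table for that build.

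A barcode was kept if it had 200 genes or more and less than 20% of its counts in 13 mitochondrial genes. Scrublet (scanpy 1.11.5, expected rate 0.1) called 1798 doublets, which were removed. Counts were log-normalised, 2000 variable genes were scaled (values limited to 10), and 30 principal components, 15 neighbours and Leiden resolution 1.0 (igraph 0.11.9), without integration, gave the clusters. Of the 9 genes only TGFB2 was among the variable genes. Clusters were named from fixed marker lists. The scaling, the rule that leaves mixed or shallow clusters unnamed (7 clusters, 5057 cells) and the split of osteoclast-like from macrophage-like cells were set after the clusters were seen. Type labels from the authors were not used here.

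Raw counts were summed per class and library, since cells are not replicates, and tested with edgeR 4.0.16 in R 4.3.3 (quasi-likelihood test; TMM scaling, low counts filtered, the 4 libraries without covariates). Benjamini-Hochberg adjustment ran over all genes of a fit. Up to 102 genes were called by DESeq2 1.42.0, the second tool. The scripts were tested on simulated data. CPM errors are SDs, errors of log2 fold changes are SEs, and intervals and depth limits (95%) cover counting error only. Same-group libraries were not copies of each other: their chi-square over its degrees of freedom was 346 (peptide 1797) and 356 (control).

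A fold change was printed for each of the 9 genes in the sum of all cells, in the tested class with its highest mean and wherever the unadjusted p was under 0.05 and the groups did not overlap. Listed pathway genes were named by the last condition, at most 6 per class by smallest p, of which a part is printed. Values of further classes, clusters and marker lists were chosen for the text after they were seen. The genes, lists and tests were chosen with earlier results of these data known. Alternatives varied the test (DESeq2 or its size factors, unfiltered genes, a block for the replicate number, leaving out 1 library at a time) and the cells (no doublet removal, 500 genes and 10% mitochondrial counts as limits, clustering at 0.5 or 2.0, with a second Leiden seed or without these and the listed pathway genes). Interaction tests between classes, a crossed block and osteoclast-like cells kept with macrophages were added after the data were seen. Sequences were not used here.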

Additional observations from a re-analysis of the deposited data

Results flagged for a closer look

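For 6 of the 9 genes, both 1797 libraries lay above both control libraries in one class where the gene was tested and below them in another. In single classes 6.56% to 17.9% of all genes lay apart and higher, and 12.3% to 25.9% apart and lower. The share of all genes that did both over the classes was not counted, so the 6 are not read as unusual. The difference of the log2 fold changes was then tested in 1 edgeR fit over both classes with a term for the library, added after the data were seen, and no adjusted p passed 0.05. TGFB1 had 0.27 in monocyte-like and -0.11 in T cell-like cells, a difference of 0.40 ± 0.16 (SE) with an edgeR adjusted p of 0.934. TGFB2 had 0.77 in stromal or osteoblast-like and -0.77 in monocyte-like cells, a difference of 1.58 ± 0.48 (edgeR adjusted p = 1). TGFB3 had 0.60 in B cell-like cells, from 52 UMIs, and -1.03 in macrophage-like cells, from 100 UMIs, a difference of 1.65 ± 0.65 (edgeR adjusted p = 0.546).

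TGFBR2 had 1.30 in erythroid-like cells and -0.17 in dendritic cell-like cells, a difference of 1.36 ± 0.79 (edgeR adjusted p = 1). The erythroid-like value rests on 77, 33, 39 and 5 UMIs. SMAD7 had 0.30 in monocyte-like and -0.41 in B cell-like cells, a difference of 0.71 ± 0.18 (edgeR adjusted p = 0.61). SKIL had 0.16 in monocyte-like and -0.94 in eosinophil-like cells, a difference of 1.28 ± 0.61 (edgeR adjusted p = 1). The pairs were chosen for their opposite signs, so these p-values are lower than those of pairs fixed without the values.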

How the results depend on the processing

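edgeR called 0 genes per fit, and the count moved with the setting. DESeq2 called 55 in B, 12 in NK or cytotoxic T, 37 in T, 28 in dendritic, 21 in endothelial, 102 in macrophage, 1 in mast cell or basophil, 50 in monocyte, 4 in neutrophil and 3 in stromal or osteoblast-like cells, 0 in eosinophil and erythroid-like cells, and 21 in the sum of all cells. Without a filter edgeR called 4 in B, 11 in NK or cytotoxic T, 2 in dendritic, 193 in endothelial, 1 in eosinophil, 28 in monocyte, 18 in neutrophil and 3 in stromal or osteoblast-like cells, and at resolution 0.5 it called 1 in dendritic cell-like cells. With the replicate number as a block it called 5 in B and 1 in neutrophil-like cells and 0 elsewhere. Deviations of same-numbered libraries correlated at -0.31 to 0.475 over the classes, and the labels do not say that numbers pair libraries. The crossed pairing, run for the sum of all cells and eosinophil-like cells, called 0 in each. With 1 library left out, counts ran from 0 to 16 in B, 0 to 24 in NK or cytotoxic T, 0 to 24 in T, 0 to 6 in dendritic, 0 to 38 in endothelial, 2 to 20 in eosinophil, 0 to 162 in erythroid, 0 to 7 in monocyte, 9 to 55 in neutrophil and 0 to 50 in stromal or osteoblast-like cells. A lone library is then assumed to vary like the other group. Of 375 log2 fold changes of the 9 genes under alternatives, 359 kept sign and call, 15 changed sign and 1 gained a call, TGFBI in stromal cells as given above. With 1 library left out, the changes of sign were in LTBP2 (-0.49 to 2.44) and TGFB3 (-0.11 to 0.55) in stromal or osteoblast-like cells and SKIL in mast cell or basophil-like cells (-0.032 to 0.13). In the sum of all cells they were in SMAD7 (-0.0074 to 0.40), TGFB1 (-0.35 to 0.025), TGFB2 (-0.93 to 1.64), TGFB3 (-0.89 to 1.12), TGFBI (-0.83 to 0.047) and TGFBR1 (-0.19 to 0.30). TGFBR1 in eosinophil-like cells ran from -0.27 to 0.061, and was 0.0068 with doublets kept and 0.0072 with these and the listed pathway genes left out of clustering. The cause was not tested. The stricter cell filter left eosinophil and erythroid-like cells too few, and mast cell or basophil-like cells (both other resolutions) and eosinophil-like cells (resolution 2.0) formed no class, so those fits were not run. Depth limits TGFB3 and LTBP2 most, with 2695 and 1091 UMIs in all.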

Other observations

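Where the rest of the pathway is made was read from the class means of the 47 listed genes, as a description with no test. Stromal or osteoblast-like cells were the highest tested class for 17 of them, endothelial-like cells for 12 and neutrophil-like cells for 5. The 17 include COL1A1, COL1A2, COL3A1 and POSTN, which are among the 14 markers that named the class, so their place was fixed by the naming. ACTA2 and TAGLN, also among the 17, are markers of the pericyte or smooth muscle-like class, which was not tested and so not ranked. In 23 of 47 every library of the highest class lay above every library of the next. The genes that hold or free the latent ligand were spread over cell types. LRRC32 stood at 62.8 CPM in endothelial-like cells and 6.33 in monocyte-like cells, the next class. ITGB8, an integrin chain that activates TGF-beta, stood at 140.3 in macrophage-like and 55.5 in monocyte-like cells. FURIN, the protease that cuts the ligand from its propeptide, stood at 429 in monocyte-like and 200.1 in mast cell or basophil-like cells. ITGB6 was at 28.8 in stromal or osteoblast-like cells and at 3.76 in endothelial-like cells. In each of these 4 genes the libraries of the leading class all lay above the next class.

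The co-receptor ENG, which is known from vessel walls, was at 362 CPM in endothelial-like and 130.3 in macrophage-like cells. TGFBR3, the co-receptor that presents TGF-beta to TGFBR2, was at 262 in dendritic cell-like and 123 in mast cell or basophil-like cells, with overlapping libraries. ACVR1, a type I receptor of the bone morphogenetic protein branch, was at 193 in stromal or osteoblast-like and 89.6 in endothelial-like cells. The inhibitor SKI, a relative of SKIL, was highest in neutrophil-like cells at 284, whereas SKIL was highest in mast cell or basophil-like cells. BAMBI, a decoy receptor, was at 62.4 in stromal or osteoblast-like cells and 11.01 in endothelial-like cells. Cluster 14, an unnamed group of 613 cells, held TGFB3 at 19.8 and TGFBI at 176 CPM on average. The C1QA cluster of macrophage-like cells held 1.49 and 188. The TGFB3 values rest on few counts: all unnamed cells together had 43 TGFB3 UMIs. Of the 100 in macrophage-like cells, 97 were in the other cluster.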
